A study of Mus musculus with 24 samples.

Results

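Gene expression was compared between Lin-CD29hiCD24+ and Lin-CD29+CD24+ cells sorted from each of 5 mouse mammary tumours. The comparison uses the 10 arrays whose titles name a mammary tumour and one of these gates, out of 24 arrays in the series. The tumours are independent, and each CD29hiCD24+ array was set against the CD29+CD24+ array of the same tumour, A to E. They were adenocarcinomas of C57BL6/J mice of genotype Apc+/1572T, which carry 1 truncating allele of Apc in the germline, so in stroma as well as tumour, and the normal controls do not. Cells were sorted by flow cytometry, and their RNA was amplified before labelling and hybridised to Affymetrix mouse genome arrays. Lin- marks cells from which lineage-marked cells had been removed, and it is the parent fraction of both gates, also hybridised for each tumour (5 arrays). Normal glands were pools from C57BL6/J Apc+/+ mice sorted through the same gates, with 3 arrays per gate, and they serve only to show where the tumour difference is unlike the normal one. Age, sex and reproductive state of the animals are not given in the labels. The series set out to compare cells of the stem cell gate, CD29hiCD24+, with their more differentiated counterparts.

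CD29 is integrin beta-1, which binds the basement membrane, and CD24 is a surface glycoprotein of epithelial cells. In the normal mammary duct an inner luminal layer is wrapped by basal, myoepithelial cells that carry much CD29, express keratins 5 and 14 with the transcription factor p63, and contract through smooth muscle actin and myosin. Mammary stem cell activity in transplants was found in the CD29hiCD24+ gate, which holds these basal cells. Apc is part of the complex that degrades beta-catenin, the messenger of Wnt signalling, and mammary tumours with active Wnt signalling often form squamous, skin-like areas.

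Across the 5 tumours, CD29hiCD24+ cells differed from CD29+CD24+ cells in 1234 of 12767 genes tested (9.67%), with 683 higher (5.35%) and 551 lower (4.32%). A gene was called at an adjusted p under 0.05 in limma with the tumour as a block, and 1223 of the 1234 had the same sign in all 5 tumours. Of the called genes 553 differed by at least 2-fold, which is 1 unit on the log2 scale used throughout, 341 higher and 212 lower. Before adjustment 3675 genes had p under 0.05. The highest were the matrix metalloprotease Mmp9, the disintegrin metalloprotease Adam12, the hypoxia genes Ndufa4l2 and Car9, the contractile genes Acta2, Myl9 and Tagln, the chitinase-like Chil1, the MHC class II gene H2-Ab1, the sodium channel Scn7a, the small proteoglycan Fmod and the matrix protein Vwa1. The lowest were genes of cornifying keratinocytes, among them the desmosomal cadherins Dsc1, Dsg1a and Dsg1b, the keratin Krt10, the caspase Casp14, the envelope protein Scel and the lipid transporter Abca12, together with Calm4, Dapl1, the transporters Slc5a1 and Slc6a14 and the protease Tmprss4. The 10 arrays give 4 residual degrees of freedom, and the count fell to 263, 218, 411, 560 and 538 genes without tumour A, B, C, D or E. Quantile normalisation shifted the share of higher genes among those called from 55.3% to 69.7%, and an actin 3' to 5' covariate shifted it to 46.3%.

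**Figure D1:**
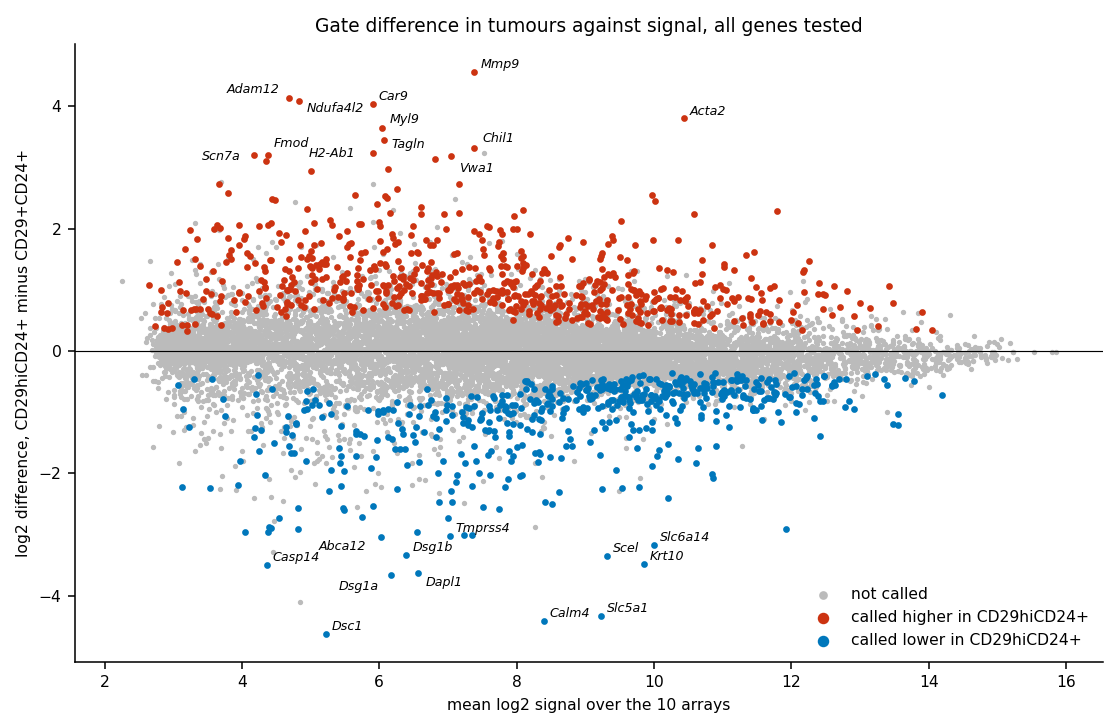
Log2 difference between CD29hiCD24+ and CD29+CD24+ cells of 5 tumours (y axis) against the mean log2 signal over the 10 arrays (x axis), with 1 point per gene tested. Red points are the 683 genes called higher, blue points the 551 called lower, and the 12 highest and 12 lowest genes with the same sign in all 5 tumours carry their names.

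All 5 arrays of a gate lay above all 5 of the other for 672 genes (5.26%), of which 440 were called. RNA of the sorted surface markers themselves was not called. Itgb1, which encodes CD29, read 10.7, 11.32, 11.16, 10.63 and 9.98 in the CD29hiCD24+ and 10.23, 10.39, 10.15, 9.72 and 10.31 in the CD29+CD24+ arrays of tumours A to E. It was higher in 4 of 5 tumours, and the difference of 0.6 ± 0.21 (95% interval 0.09 to 1.1) missed the threshold (limma adjusted p = 0.122). Cd24a differed by -0.41 ± 0.18 (95% interval -0.83 to 0.01) and was not called either. The integrin subunit Itgb4, a hemidesmosome component, was called higher by 1.3 ± 0.15, and the receptor Kit, a luminal progenitor marker, lower, at -1.56 ± 0.31, a call that was lost without tumour A, B, C or D. With 5' and 3' probe sets as a measure of RNA length, the actin 3' minus 5' signal was 2.03 ± 0.30 (SD, n = 5) in CD29hiCD24+ and 2.06 ± 0.36 (SD, n = 5) in CD29+CD24+ arrays. Within tumours the gates differed by -0.45 to 0.8, with CD29hiCD24+ higher in 2 of 5. The same measure of Gapdh differed by -0.55 to 0.35, higher in 1 of 5. Tumour E was the 1 tumour in which CD29hiCD24+ was higher for Gapdh, at 2.206 against 1.854. Each log2 difference is given ± its standard error, unless SD is written.

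Genes that cells switch on when oxygen is short were, on average over the list, higher in CD29hiCD24+ cells of every tumour. Of 28 members tested in the hypoxia list 12 were called higher and 0 lower, against 5.35% and 4.32% of all genes, and the list median was 0.65 against 0.006 for all genes. The mean of the list was higher in all 5 tumours, by 0.823 to 1.201. The count was 7, 6, 7, 9 and 10 without tumour A, B, C, D or E. Under low oxygen the HIF transcription factors escape degradation by the prolyl hydroxylases and bind short response elements in promoters.

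Car9, a carbonic anhydrase that regulates pH at the cell surface, read 8.27, 6.43, 8.54, 7.83 and 8.57 in CD29hiCD24+ arrays and 3.83, 2.85, 5.87, 3.27 and 3.61 in CD29+CD24+ arrays of tumours A to E. Every CD29hiCD24+ array lay above every CD29+CD24+ array, with tumour B lowest in both gates, and the difference was 4.04 ± 0.35 (limma adjusted p = 0.00664). The Lin- level was 3.98 ± 1.0 (SD, n = 5), close to that of CD29+CD24+ cells. Ndufa4l2, a mitochondrial protein that replaces Ndufa4 under hypoxia, read 7.89, 5.49, 7.58, 5.86 and 7.56 against 1.95, 1.92, 3.93, 1.87 and 4.24 and differed by 4.09 ± 0.38 (adjusted p = 0.00797). The gates did not overlap, and in tumours A, B and D the CD29+CD24+ level lay in the low band, which ends at 2.829 and holds the lowest 40% of the deposited values. Ndufa4 itself differed by -0.12 ± 0.12 (95% interval -0.42 to 0.17) and was not called.

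Bnip3, a mitophagy receptor, read 11.75, 10.27, 11.46, 11.31 and 11.44 in CD29hiCD24+ against 9.06, 7.88, 9.31, 8.16 and 9.59 in CD29+CD24+ arrays, again without overlap, and differed by 2.45 ± 0.19 (adjusted p = 0.00664). The prolyl hydroxylases that mark HIF for degradation and are themselves induced by it were called higher as well, Egln1 by 1.49 ± 0.16 and Egln3 by 1.49 ± 0.2. The angiogenic factor Vegfa was higher by 0.68 ± 0.13, the collagen-modifying enzymes P4ha1 by 1.0 ± 0.15 and Plod1 by 1.47 ± 0.24, and the oxidoreductase Ero1a by 0.6 ± 0.09. Ankrd37 (1.26 ± 0.2) and Higd1a (0.78 ± 0.16) were the other called members, with Anln (1.35 ± 0.17), which is known for its part in cell division. RNA of the HIF subunits was not called, with Hif1a at 0.18 ± 0.17 (95% interval -0.21 to 0.58), Epas1 at 0.12 ± 0.14 and Arnt at 0.1 ± 0.13. Calls of Car9, Ndufa4l2, Bnip3, Egln1 and Anln were kept whichever tumour was left out, Egln3 lost its call without tumour A, and the other 6 lost theirs without tumour B and at least 1 more.

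The promoters of 3 called members are shown because they hold the hypoxia response element in the 250 bases before the start of the gene. Capitals mark ACGTG or GCGTG on either strand. The sequences are RefSeq windows of build GRCm38.p6, 5' to 3' on the strand of the gene, at chr4:43506776-43507025 (plus strand) for Car9, chr7:138909507-138909756 (minus strand) for Bnip3 and chr12:54203875-54204124 (minus strand) for Egln3.
Car9: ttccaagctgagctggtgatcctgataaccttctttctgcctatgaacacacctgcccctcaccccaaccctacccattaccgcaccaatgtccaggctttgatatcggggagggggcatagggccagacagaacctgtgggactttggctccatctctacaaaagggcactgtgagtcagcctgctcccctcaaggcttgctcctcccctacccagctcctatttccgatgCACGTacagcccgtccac
Bnip3: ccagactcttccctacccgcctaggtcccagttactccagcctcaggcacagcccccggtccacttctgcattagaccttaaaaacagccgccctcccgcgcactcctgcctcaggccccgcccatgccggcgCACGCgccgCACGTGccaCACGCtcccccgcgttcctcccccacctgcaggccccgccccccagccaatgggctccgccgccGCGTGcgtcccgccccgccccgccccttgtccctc
Egln3: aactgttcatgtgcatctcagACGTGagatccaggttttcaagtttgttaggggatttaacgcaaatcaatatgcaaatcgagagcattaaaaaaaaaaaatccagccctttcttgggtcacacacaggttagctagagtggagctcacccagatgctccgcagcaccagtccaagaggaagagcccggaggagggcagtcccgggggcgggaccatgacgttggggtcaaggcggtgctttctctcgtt
The Car9 window holds 1 match, which begins at base -18 from the start, Egln3 holds 1 at base -229, and Bnip3 holds 5, of which those at -108 and -107 overlap. Windows were found for 10286 of the 12767 genes tested. At least 1 match stood in 23 of 30 windows of the hypoxia list (76.7%), against 53.6% of the windows of all genes tested and 38.6% of all windows. The share was 50.5% in windows of all genes called higher and 54.4% in those of genes called lower. These letters are short and common, and a match does not show that a factor binds there.

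Enzymes of glycogen and sugar metabolism went the same way. In the glycolysis list 7 of 24 members were called higher and 1 lower, against 5.35% and 4.32% of all genes, with a median of 0.449 and a mean that was higher in all 5 tumours. Glycogen phosphorylase Pygl read 8.05, 7.1, 8.05, 8.37 and 8.26 against 6.2, 4.79, 6.18, 7.02 and 5.68 and differed by 1.99 ± 0.21 (adjusted p = 0.00995). Glycogen synthase Gys1 read 7.93, 7.14, 6.85, 7.13 and 7.99 against 5.96, 5.62, 5.43, 5.17 and 5.41 and differed by 1.89 ± 0.21 (adjusted p = 0.0108). For each of them all 5 CD29hiCD24+ arrays lay above all 5 others. Pgm1, which links glycogen to glycolysis, was higher by 1.34 ± 0.18, the phosphofructokinase Pfkl by 1.25 ± 0.19, and Tpi1 by 0.78 ± 0.09, whereas the regulatory enzyme Pfkfb4 was lower, at -1.21 ± 0.25, a call that was lost whichever tumour was left out. The hexokinase Hk2 (-0.4 ± 0.18) and the lactate dehydrogenase Ldha (0.4 ± 0.13) were not called. Without tumour A, B, C, D or E the count of higher members was 4, 4, 5, 5 and 8. Of 29 members of the respiratory chain tested, limma called 0, and 2 had an unadjusted p under 0.05, with a median of 0.045, and the mean was higher in 3 of 5 tumours.

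**Figure D2:**
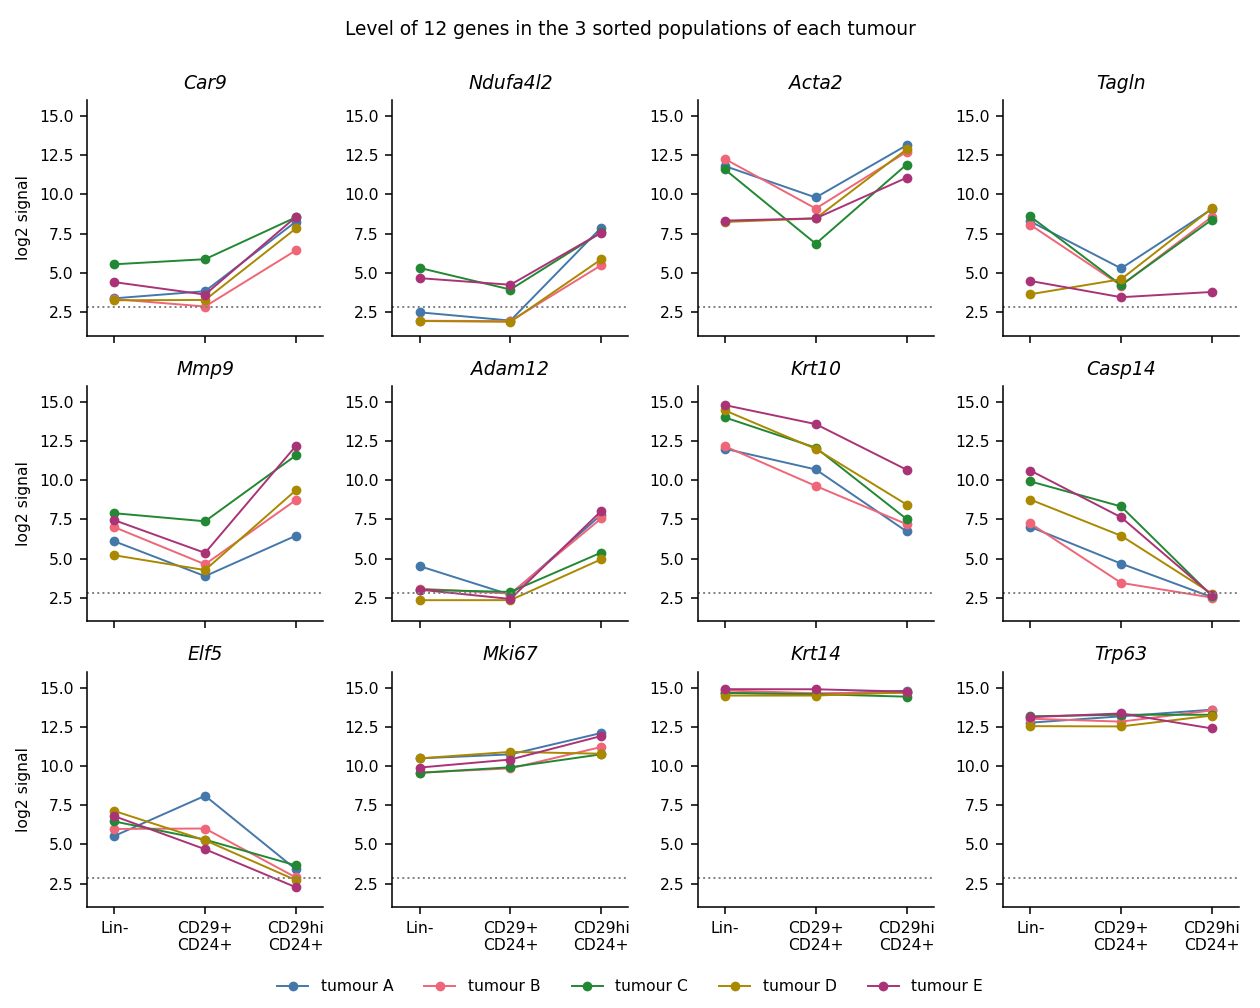
Log2 signal (y axis) of 12 genes in the Lin-, CD29+CD24+ and CD29hiCD24+ arrays (x axis) of tumours A to E, 1 line per tumour, with the upper limit of the low band at 2.829 dotted. Car9, Ndufa4l2, Acta2, Mmp9 and Adam12 rise from CD29+CD24+ to CD29hiCD24+ in all 5 tumours, Tagln stays near its CD29+CD24+ level in tumour E, Krt10, Casp14 and Elf5 fall, and Krt14 and Trp63 are high in all 3 populations.

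The mean of the smooth muscle genes, which myoepithelial cells and pericytes express, was higher in CD29hiCD24+ cells, most of all in tumours A to D. Of 14 members tested 7 were called higher and 0 lower, against 5.35% and 4.32% of all genes, and 4 of the 14 differences were negative, with a median of 1.544, and the list mean was higher by 2.1, 1.666, 1.699, 2.185 and 0.354 in tumours A to E. Acta2, smooth muscle actin, read 13.14, 12.72, 11.91, 12.88 and 11.07 in CD29hiCD24+ arrays and 9.81, 9.1, 6.86, 8.47 and 8.47 in CD29+CD24+ arrays. The gates did not overlap and the difference was 3.8 ± 0.34 (adjusted p = 0.0067), although the other of its 2 kept probe sets went the opposite way. Myl9, the regulatory myosin light chain, read 9.65, 8.56, 6.69, 7.59 and 6.83 against 5.42, 4.59, 4.41, 3.58 and 3.12 and differed by 3.64 ± 0.31 (adjusted p = 0.00664), also without overlap. Both calls were kept whichever tumour was left out. Of 6 pericyte markers Cspg4 (2.94 ± 0.47) and Pdgfrb (1.14 ± 0.15) were called higher, against 5.35% of all genes. The differences of Rgs5, Mcam and Notch3 were negative and not called, and the list median was -0.201. The mean of that list differed by -0.522, 1.045, 0.359, -0.275 and 0.738 in tumours A to E. The part of pericytes in this result was not tested.

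Tumour E departed from the rest in other genes of this group. Its actin 3' minus 5' signal, at 2.473 in CD29hiCD24+ and 1.677 in CD29+CD24+ cells, was also the widest apart of the 5 tumours, and the part of RNA quality in the departure was not tested. The actin-binding protein Tagln read 9.07, 8.58, 8.39, 9.11 and 3.78 in CD29hiCD24+ arrays and 5.28, 4.19, 4.22, 4.59 and 3.44 in CD29+CD24+ arrays, so that tumour E was low in both gates. The difference over 5 tumours was 3.44 ± 0.63 (adjusted p = 0.0279), and it was 0.34 within tumour E. Calponin, Cnn1, read 6.05, 5.55, 5.49, 5.89 and 2.15 against 2.27, 2.18, 2.11, 2.72 and 2.21, with all 5 CD29+CD24+ arrays and tumour E of the other gate in the low band. Cnn1 thus passed the filter on low values only through CD29hiCD24+ arrays, and its call was lost without that filter. Myosin heavy chain Myh11 read 6.5, 5.67, 6.05, 6.85 and 3.52 against 3.5, 3.26, 3.27, 2.69 and 3.48 and differed by 2.47 ± 0.54, with tumour E hardly above the CD29+CD24+ arrays. The oxytocin receptor Oxtr, which triggers contraction at milk let-down, was not called (1.98 ± 0.57, adjusted p = 0.0766) and read 2.51 in the CD29hiCD24+ array of tumour E against 4.19 to 7.09 in the others. Leaving out tumour E gave 8 called members, and leaving out A, B, C or D gave 3, 3, 4 and 3; Tagln, Cnn1 and Myh11 lost their calls without A, B, C or D. Tpm1, Smtn, Srf and Mrtfa were not called, with differences from -0.31 to -0.09.

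A CArG box, the element through which serum response factor acts on contractile genes, was found by exact match in 2 of 13 windows of this list (15.4%), against 1.14% of the windows of all genes tested and 1.47% of all windows. The Myl9 window is shown because it carries 1 match, in capitals, which begins at base -161 (GRCm38.p6, chr2:156775214-156775463, plus strand).
Myl9: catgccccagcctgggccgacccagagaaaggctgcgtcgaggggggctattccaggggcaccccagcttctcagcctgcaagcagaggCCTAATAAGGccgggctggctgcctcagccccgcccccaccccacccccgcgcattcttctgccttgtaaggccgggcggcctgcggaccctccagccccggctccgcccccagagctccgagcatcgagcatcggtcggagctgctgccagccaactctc
The Acta2 window held no exact match in these 250 bases, and nothing follows from this about the factor.

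Keratins and transcription factors that define basal cells were high in both gates. Krt14 read 14.8, 14.67, 14.42, 14.7 and 14.74 in CD29hiCD24+ and 14.59, 14.64, 14.58, 14.49 and 14.89 in CD29+CD24+ arrays, a difference of 0.03 ± 0.1 with a 95% interval of -0.2 to 0.26. The gates overlapped, and the tumour Lin- level was 14.71 ± 0.16 (SD, n = 5). Krt5 differed by 0.32 ± 0.13 (95% interval 0.01 to 0.62), Krt17 by 0.04 ± 0.2 (-0.45 to 0.53) and Trp63, which encodes p63, by 0.17 ± 0.25 (-0.43 to 0.78), and none of these 4 was called. Among the CD29+CD24+ arrays these keratins read from 12.79 (Krt17, tumour A) to 14.89 (Krt14, tumour E).

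Some adhesion genes of basal cells were called higher in the CD29hiCD24+ gate. Against 5.35% and 4.32% of all genes, 6 of 15 members of the basal list were called higher and 0 lower, with a median of 0.34. Besides Itgb4 these were the laminin receptor subunit Itga3 (0.99 ± 0.18), the hemidesmosome linker Dst (0.95 ± 0.1, with 2 of its 4 probe sets opposite), the laminin-332 chain Lamb3 (0.76 ± 0.15), the hemidesmosome collagen Col17a1 (0.64 ± 0.13) and the Notch ligand Jag2 (0.91 ± 0.22). Without 1 tumour 2 or 3 of the 6 stayed called (2 without A, B, C or E, 3 without D). The laminin chain Lama3 (0.51 ± 0.22) and Itga6 (0.1 ± 0.12) were not called.

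Matrix and protease genes were the other group at the top of the ranking. In the list of ADAM, MMP and TIMP genes 6 of 21 were called higher and 1 lower, against 5.35% and 4.32% of all genes. The list median was 0.102. Mmp9, a gelatinase, read 6.46, 8.73, 11.58, 9.36 and 12.19 in CD29hiCD24+ arrays and 3.88, 4.63, 7.38, 4.27 and 5.36 in CD29+CD24+ arrays. The within-tumour difference ran from 2.58 in tumour A to 6.83 in tumour E, but the gates overlapped, since the CD29+CD24+ array of tumour C was above the CD29hiCD24+ array of tumour A. The mean difference was 4.56 ± 0.56 (adjusted p = 0.0124). Adam12 read 7.8, 7.56, 5.38, 4.95 and 8.04 against 2.69, 2.77, 2.87, 2.35 and 2.42, with every CD29+CD24+ array in or just above the low band, and differed by 4.13 ± 0.52 (adjusted p = 0.0129). The stromelysin Mmp10 (1.67 ± 0.36), the collagenase Mmp13 (1.33 ± 0.21), the inhibitor Timp2 (0.77 ± 0.15) and the membrane protease Mmp14 (0.46 ± 0.1) were called higher and Adam8 lower (-0.84 ± 0.12). Of the 6 higher members 3, 2, 2, 2 and 2 were called without tumour A, B, C, D or E, and Mmp9 and Adam12 kept their calls in all 5 cases.

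Among collagens and matrix proteins 10 of 31 were called higher and 0 lower, against 5.35% and 4.32% of all genes. The list median was 0.399. The fibril-associated collagen Col12a1 read 8.06, 9.0, 8.43, 8.27 and 8.12 against 5.13, 5.36, 6.63, 3.29 and 5.77 and differed by 3.14 ± 0.45 (adjusted p = 0.0166), without overlap, a call that was lost without tumour A or B. Vwa1, a protein of basement membranes, read 10.22, 8.76, 7.28, 8.02 and 8.88 against 6.82, 5.39, 5.28, 4.82 and 4.93 and differed by 3.19 ± 0.28 (adjusted p = 0.00668). Tumour A was highest in both gates for Vwa1, and the gates did not overlap. Tenascin-C, Tnc, was higher by 1.84 ± 0.15, Tgfbi, a matrix protein induced by TGF-beta, by 2.28 ± 0.2, and biglycan, Bgn, by 1.98 ± 0.4. Tgfb1 was higher by 1.03 ± 0.13, with 1 of its 2 probe sets opposite, while the mesenchymal genes Vim (-0.46 ± 0.32), Zeb1 (0.01 ± 0.05), Fn1 (0.31 ± 0.39) and Snai2 (-0.26 ± 0.14) were not called. In the mesenchymal transition list 3 of 16 were called higher and 0 lower, against the same shares of all genes. Without tumour B 2 of them were called. The matrix count was 2, 2, 3, 4 and 8 without tumour A, B, C, D or E.

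Fibroblast markers had 1 of 12 members called higher (8.33%), close to the 5.35% of all genes. It was the surface protein Pdpn (0.88 ± 0.11), which basal epithelial cells also carry. Col1a1 (-0.19 ± 0.29), Col3a1 (-0.02 ± 1.11) and Dcn (-0.69 ± 0.25) were not called. The mean level of the fibroblast list was 6.43 to 7.93 in CD29hiCD24+, 6.02 to 7.54 in CD29+CD24+ and 7.45 to 10.5 in Lin- arrays. Of pericyte markers Cspg4 and Pdgfrb were called higher, as given above, while Rgs5 (-0.47 ± 0.83) was not, and the pericyte mean was higher in 3 of 5 tumours. Endothelial markers had 0 of 8 called. The pericyte count was 1, 0, 1, 2 and 2 higher without tumour A, B, C, D or E, and 1 was called lower without E. Of the fibroblast markers 2 were called higher without D and 1 lower without C. The endothelial list had 1 member at an unadjusted p under 0.05 in limma. The part of these cells in the matrix result was not tested. In sorted bulk samples a difference in how many cells of a type are present and a difference in RNA per cell cannot be told apart.

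Cell division genes were called higher in CD29hiCD24+ cells, with tumour D hardly different. In the mitosis list 13 of 24 members were called higher and 0 lower, against 5.35% and 4.32% of all genes. The median was 1.233, and all 24 differences were positive. The list mean was higher by 1.763, 1.736, 1.342, 0.094 and 1.221 in tumours A to E. In the DNA replication list 11 of 24 were called higher and 0 lower, against the same shares of all genes. The median was 0.889, and the list mean was higher by 0.813, 1.094, 1.119, 0.07 and 0.941 in tumours A to E. Without tumour D the counts rose to 18 and 15 members. They fell to 0 and 2 without A, 1 and 3 without B, 1 and 2 without C, and 2 and 4 without E, and no member of either list was called without the tumour block.

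Thymidine kinase Tk1, active in S phase, read 10.19, 9.77, 8.48, 7.66 and 9.7 in CD29hiCD24+ arrays and 8.35, 7.38, 6.37, 6.13 and 7.98 in CD29+CD24+ arrays. The gates overlapped across tumours, yet within every tumour CD29hiCD24+ was higher, and the difference was 1.92 ± 0.16 (adjusted p = 0.00664). Cyclin E1, Ccne1, which drives entry into S phase, read 8.51, 8.97, 8.26, 8.49 and 10.16 against 7.43, 7.78, 6.31, 6.87 and 7.82 and differed by 1.64 ± 0.21, without overlap. Tk1 and Ccne1 kept their calls whichever tumour was left out. The mitotic kinase Plk1 read 6.8, 5.12, 3.81, 3.31 and 5.92 against 3.0, 2.82, 2.84, 2.83 and 3.18 and differed by 2.06 ± 0.47, with the CD29+CD24+ arrays near the low band. Cdk1, the kinase that starts mitosis, differed by 1.55 ± 0.28 and Foxm1, a transcription factor of G2 genes, by 1.46 ± 0.27. Mki67 was not called (0.99 ± 0.24, adjusted p = 0.0541) and was lower in CD29hiCD24+ than in CD29+CD24+ cells of tumour D, at 10.78 against 10.90.

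**Figure D3:**
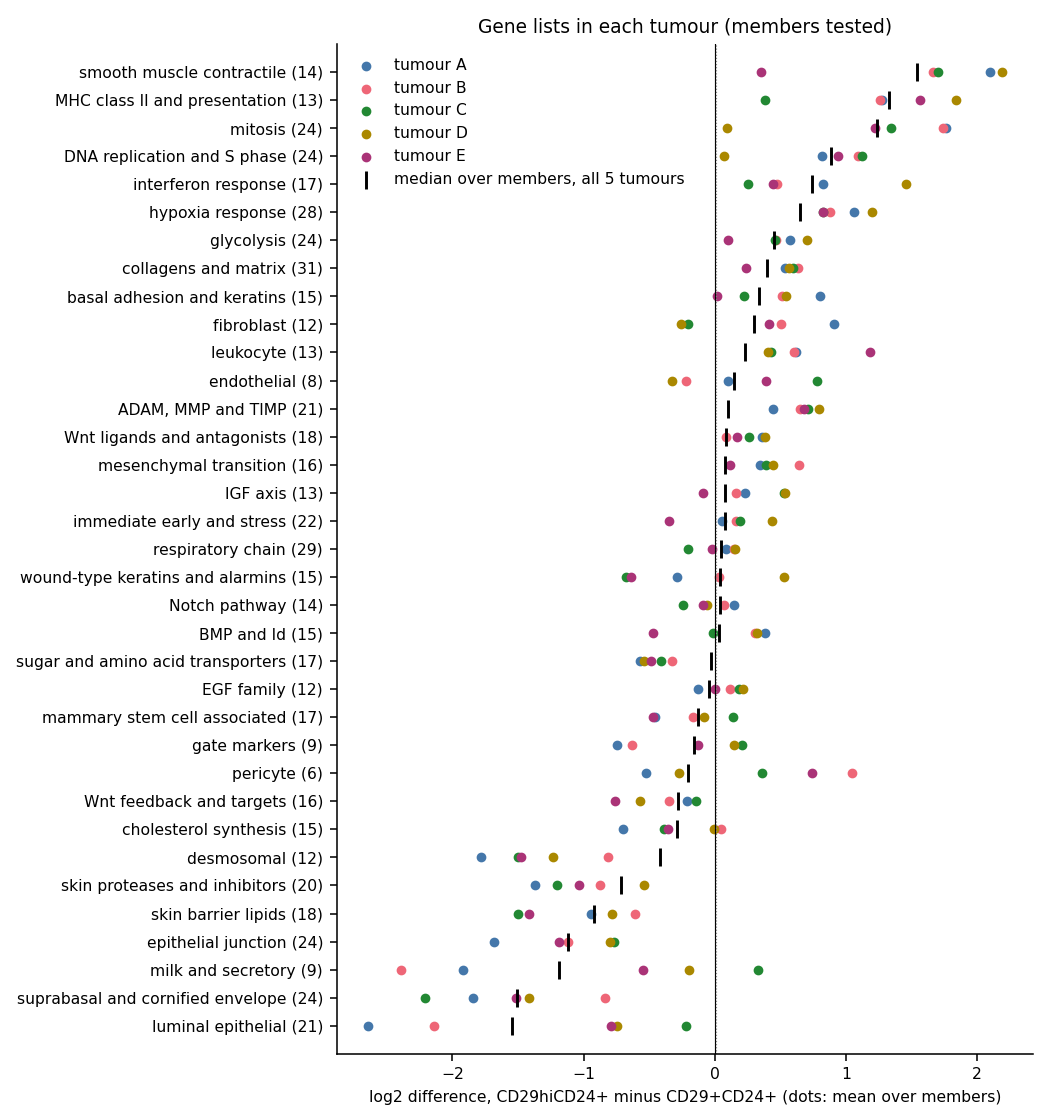
Mean log2 difference between CD29hiCD24+ and CD29+CD24+ cells (x axis) over the members of each gene list with at least 5 members tested (y axis, number tested in brackets), 1 dot per tumour; black bars are list medians from the fit over 5 tumours. The hypoxia dots lie between 0.823 and 1.201, tumour D stands near 0 for mitosis and DNA replication, tumour E is lowest for smooth muscle genes, and the suprabasal and junction lists lie below 0 in every tumour.

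The genes lower in CD29hiCD24+ cells were led by the programme of the upper epidermis. Of 24 suprabasal and cornified envelope genes tested 10 were called lower and 0 higher, against 4.32% and 5.35% of all genes, with a median of -1.505, and the list mean was lower in all 5 tumours, with differences of -2.207 to -0.836. In skin these genes are switched on as keratinocytes leave the basal layer and build a cross-linked envelope under the membrane. The count was 7, 9, 7, 11 and 8 without tumour A, B, C, D or E, and 1 member was called higher without A.

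Krt10, the keratin of the first suprabasal layers, read 6.73, 7.2, 7.53, 8.45 and 10.67 in CD29hiCD24+ and from 9.63 in tumour B to 13.58 in tumour E in CD29+CD24+ arrays. It was lower within every tumour, although the CD29hiCD24+ array of tumour E lay above the CD29+CD24+ array of tumour B, and the difference was -3.48 ± 0.3 (adjusted p = 0.00664). Its partner Krt1 was not called (-4.1 ± 1.02, adjusted p = 0.0541) and ran from 2.08 to 10.89 in the CD29+CD24+ arrays. The transglutaminase Tgm1, which cross-links the envelope, read 7.42, 8.08, 8.49, 7.84 and 8.77 against 10.02, 9.95, 11.06, 9.86 and 10.97 and differed by -2.25 ± 0.14 (adjusted p = 0.00436). Sciellin, Scel, read 8.9, 7.89, 5.91, 7.62 and 7.91 against 10.001 to 12.44 (median 10.88) and differed by -3.35 ± 0.38 (adjusted p = 0.0108), and neither gene overlapped between gates. Casp14 was in the low band in all 5 CD29hiCD24+ arrays, at 2.51 to 2.76, and at 4.68, 3.45, 8.33, 6.46 and 7.64 in the CD29+CD24+ arrays, with tumour B lowest. It lost its call without tumour A, C, D or E. Casp14 passed the filter on low values only through CD29+CD24+ arrays, and its call was lost without that filter too. Sprr1a (-2.9 ± 0.23), Sprr1b (-2.46 ± 0.23), the transglutaminase Tgm5 (-2.56 ± 0.35), the calmodulin-like Calml3 (-2.49 ± 0.38), periplakin Ppl (-1.43 ± 0.15) and Sbsn (-0.95 ± 0.17) were the other called members. Lor (0.66 ± 0.23) and Ivl (1.04 ± 0.76), the 2 members with a positive difference, were not called. Neither were Cnfn, Flg and Rptn, with negative differences of -2.77, -1.95 and -1.58.

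Promoters of 3 of these genes are shown because they hold matches to a loose form of the AP-1 site. That site is bound by Fos and Jun, is known in genes of keratinocyte differentiation and has C or G as its middle base. The loose form takes any base (N) there. Capitals mark TGANTCA on either strand in the 250 bases before the start (GRCm38.p6), at chr14:103513091-103513340 (plus strand) for Scel, chr3:92485882-92486131 (minus strand) for Sprr1a and chr3:92438780-92439029 (minus strand) for Sprr1b.
Scel: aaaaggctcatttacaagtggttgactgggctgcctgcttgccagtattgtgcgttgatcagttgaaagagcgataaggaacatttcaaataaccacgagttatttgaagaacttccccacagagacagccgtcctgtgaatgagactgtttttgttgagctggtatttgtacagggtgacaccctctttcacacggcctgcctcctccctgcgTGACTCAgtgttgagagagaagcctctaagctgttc
Sprr1a: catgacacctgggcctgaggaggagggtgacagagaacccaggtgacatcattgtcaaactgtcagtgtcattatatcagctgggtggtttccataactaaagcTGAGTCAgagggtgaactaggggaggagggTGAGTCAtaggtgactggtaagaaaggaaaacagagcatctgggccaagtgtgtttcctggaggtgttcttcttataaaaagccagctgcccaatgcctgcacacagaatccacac
Sprr1b: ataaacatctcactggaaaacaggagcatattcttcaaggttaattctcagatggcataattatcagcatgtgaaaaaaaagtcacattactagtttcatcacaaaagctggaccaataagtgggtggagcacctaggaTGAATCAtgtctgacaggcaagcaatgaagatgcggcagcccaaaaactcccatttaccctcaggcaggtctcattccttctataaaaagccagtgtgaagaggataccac
The match begins at base -36 in Scel, at -146 and -116 in Sprr1a and at -111 in Sprr1b. Its middle base is C in Scel, G in Sprr1a and A in Sprr1b. Of 22 windows in this list, which belong to 19 genes, 14 held a match (63.6%), against 5.02% of the windows of all genes tested, 6.75% of all windows and 7.13% of those of genes called lower. These shares are of the loose form, and windows with C or G in the middle were not counted apart. In Flg, Rptn, Sbsn and Sprr1b the only match has A or T there. Members that were not called held it too, Lor and Ivl among them, and the windows of Krt10, Casp14, Tgm1 and Tgm5 did not. RNA of the AP-1 subunits Fos (0.14 ± 0.08), Jun (0.21 ± 0.12) and Junb (0.07 ± 0.38) was not called.

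Other parts of the skin programme went the same way. Desmosomal genes had 4 of 12 called lower and 0 higher, against 4.32% and 5.35% of all genes. The 4 were all cadherins. Dsc1 read 2.77, 3.09, 2.81, 3.02 and 2.88 in CD29hiCD24+ arrays, at or near the low band, and 7.8, 3.27, 9.03, 8.56 and 9.0 in CD29+CD24+ arrays, where tumour B stood far below the rest. The difference was -4.62 ± 0.89 (adjusted p = 0.0314), and the call was lost without tumour A, C, D or E. Dsg1b read 4.19, 4.68, 5.1, 4.61 and 5.05 against 8.08, 7.05, 8.91, 7.93 and 8.36 and differed by -3.34 ± 0.25, without overlap; Dsg1a (-3.66 ± 0.54) is a near copy of it, and the probes may not separate them. Dsc2 was lower, at -1.71 ± 0.27, while the plaque proteins Dsp (-0.06 ± 0.07), Jup (-0.21 ± 0.14) and Pkp1 (0.01 ± 0.13) were not called. The plaque protein Pkp2 was not called either, though its difference was -1.82 (limma adjusted p = 0.129). The desmosomal count was 2, 3, 2, 3 and 2 without tumour A, B, C, D or E.

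Barrier lipid genes had 6 of 18 called lower and 0 higher, against 4.32% and 5.35% of all genes, with a median of -0.922. The keratinocyte lipid transporter Abca12 read 4.52, 3.74, 4.02, 5.61 and 4.67 against 6.71, 7.14, 8.13, 7.61 and 8.12 and differed by -3.03 ± 0.34 (adjusted p = 0.0108). The omega-hydroxylase Cyp4f39 (-2.23 ± 0.23), the serine palmitoyltransferase subunit Sptlc3 (-2.24 ± 0.42), the ceramide synthase Cers3 (-1.53 ± 0.29), Lipm (-2.2 ± 0.5) and Elovl7 (-0.59 ± 0.11) were lower as well. Among skin proteases and their inhibitors 7 of 20 were called lower and 0 higher, against the same shares of all genes. The lower members included Tmprss4 at -3.02 ± 0.21, the cystatin Cst6 at -2.87 ± 0.37, the kallikrein Klk13 at -2.55 ± 0.45 and the inhibitor Spint1 at -1.12 ± 0.1. The lipid count was 3, 4, 2, 4 and 2, and the protease count 5, 3, 3, 6 and 5, without tumour A, B, C, D or E. Of keratins of wounded skin and alarmins 1 of 15 (6.67%, against 4.32% of all genes), Krt79 (-1.19 ± 0.15), was called lower. Of the 15 differences 8 were positive and 7 negative, with a median of 0.037. Krt6a (0.06 ± 0.1), S100a8 (0.69 ± 0.3) and S100a9 (0.22 ± 0.29) were not called. Neither were Krt6b, Krt16 and Defb3, with negative differences of -0.97, -0.59 and -1.67.

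Slc5a1, the sodium-glucose cotransporter, read 6.2, 6.15, 7.45, 6.57 and 8.96 in CD29hiCD24+ arrays of tumours A to E, and 10.59, 12.92, 10.77 and 12.70 in CD29+CD24+ arrays of tumours A, C, D and E. In tumour B, which was lowest in both gates, the difference was -3.85, and over 5 tumours it was -4.33 ± 0.26 (adjusted p = 0.00436). The amino acid transporter Slc6a14 read 6.56, 8.97, 9.95, 8.02 and 8.58 against 11.4, 11.05, 12.68, 10.85 and 11.94 and differed by -3.17 ± 0.37 (adjusted p = 0.0117). Neither overlapped between the gates. Slc38a1 (-2.25 ± 0.52) was the only other of 17 sugar and amino acid transporters called. Of that list 17.6% were called lower, against 4.32% of all genes. The glucose transporter Slc2a1 (0.62 ± 0.15) was not called, and 2 members stayed called whichever tumour was left out. Calm4, a calmodulin-like gene of keratinocytes, read 5.49, 5.95, 4.54, 6.16 and 8.8 against 10.92, 8.29, 10.97, 10.4 and 12.42 and differed by -4.41 ± 0.56 (adjusted p = 0.013), with tumour E highest in both gates and the gates overlapping.

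The mean of the junction genes of polarised epithelium was lower in CD29hiCD24+ cells in every tumour. Of 24 tested 15 were called lower and 0 higher, against 4.32% and 5.35% of all genes, with a median of -1.116, and the mean of the list differed by -1.681 to -0.767 within tumours. Claudin-1, Cldn1, a strand-forming protein of tight junctions, read 8.33, 9.02, 9.27, 9.3 and 8.87 against 10.48, 10.18, 10.64, 10.54 and 10.88 and differed by -1.59 ± 0.18 (adjusted p = 0.0108), without overlap. Grhl3, a transcription factor of the skin barrier, read 9.26, 10.2, 10.42, 9.55 and 9.84 against 10.52, 11.25, 12.29, 10.95 and 12.15 and differed by -1.58 ± 0.19 (adjusted p = 0.0124). Occludin, Ocln, was lower, at -2.04 ± 0.44, tricellulin, Marveld2, at -1.81 ± 0.35, Tjp3 at -1.66 ± 0.31 and the polarity protein Crb3 at -1.1 ± 0.13. E-cadherin, Cdh1, stayed high in both gates, at 13.51, 13.67, 13.42, 13.59 and 12.99 against 13.89, 13.94, 13.91, 13.96 and 13.71, and was called lower, at -0.45 ± 0.09. The splicing factor Esrp2 was lower, at -0.9 ± 0.16, whereas Esrp1 (-0.4 ± 0.13), Grhl2 (0.0 ± 0.15) and Ovol1 (-0.41 ± 0.26) were not called. Counts were 6, 3, 7, 8 and 7 without tumour A, B, C, D or E, and Cldn1, Grhl3 and Crb3 kept their calls in all 5 cases.

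The mean of the luminal genes was lower too, most of all in tumours A and B. Of 21 tested 7 were called lower and 0 higher, against 4.32% and 5.35% of all genes, and 4 of the 21 differences were positive, with a median of -1.548, and the list mean was lower in all 5 tumours, from -2.641 in the tumour with the widest gap to -0.222. Elf5, a transcription factor of luminal progenitors and of milk secretion, read 3.41, 2.89, 3.66, 2.72 and 2.26 in CD29hiCD24+ and 8.1, 6.01, 5.3, 5.26 and 4.69 in CD29+CD24+ arrays. The gates did not overlap, and the difference was -2.88 ± 0.41 (adjusted p = 0.0161), a call that was lost without tumour B. The retinal dehydrogenase Aldh1a3 read 8.42, 8.54, 9.4, 7.24 and 8.51 against 11.43, 10.41, 10.77, 10.21 and 10.48 and differed by -2.24 ± 0.27 (adjusted p = 0.012). Keratin 18, Krt18, read 10.3, 9.99, 10.8, 9.33 and 8.79 against 13.67, 13.38, 11.06, 10.65 and 10.46. It fell least in tumour C, and its call (adjusted p = 0.0498) was lost without tumour A, B, D or E. Its partner Krt8 was not called (-1.55 ± 0.47). The progesterone receptor Pgr (-2.15 ± 0.48), Cldn3 (-2.03 ± 0.46) and Cldn4 (-1.95 ± 0.42) were called lower, and Gata3 (0.12 ± 0.18), Esr1 (0.06 ± 0.79) and Foxa1 (-1.34 ± 0.62) were not called. Counts were 2, 1, 6, 3 and 3 without tumour A, B, C, D or E. Of 9 milk and secretory genes 3 were called lower, against 4.32% of all genes. The 3 were Ltf (-3.0 ± 0.66), Wfdc18 (-2.07 ± 0.47) and Plet1 (-1.21 ± 0.26), and 1, 0, 1, 0 and 1 were called without tumour A, B, C, D or E.

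Several other genes at the ends of the ranking lost their call when a tumour was left out. Scn7a, a voltage-insensitive sodium channel, read 4.28, 7.14, 6.97, 7.76 and 2.79 against 2.71, 2.68, 2.49, 2.45 and 2.56 and differed by 3.21 ± 0.77 (adjusted p = 0.0496). Fibromodulin, Fmod, read 5.63, 7.36, 6.09, 7.88 and 2.94 against 2.79, 2.69, 2.78, 2.75 and 2.85 and differed by 3.21 ± 0.7 (adjusted p = 0.0394). In CD29+CD24+ cells Scn7a read within the low band in all 5 tumours and Fmod in 4 of 5, so the size of these differences and their rank are set against values with no firm order. Scn7a passed the filter on low values only through CD29hiCD24+ arrays, and the calls of Scn7a and Fmod were lost without that filter. For both, tumour E was near the level of the CD29+CD24+ arrays, and the call was lost without tumour A, B, C or D. Chil1, a secreted chitinase-like protein, read 8.57, 10.94, 9.18, 11.24 and 5.31 against 7.91, 8.57, 4.92, 4.76 and 2.46 and differed by 3.32 ± 0.77 (adjusted p = 0.0462), a call lost whichever tumour was left out. Dapl1, found in epithelium, read 3.96, 4.65, 4.09, 5.26 and 5.84 against 8.12, 6.3, 9.34, 9.26 and 8.88 and differed by -3.62 ± 0.49, with its call lost without tumour A. By contrast the serine protease Tmprss4 read 6.21, 4.73, 5.03, 4.49 and 7.1 against 9.17, 7.46, 8.86, 7.47 and 9.72 and kept its call whichever tumour was left out.

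**Figure D4:**
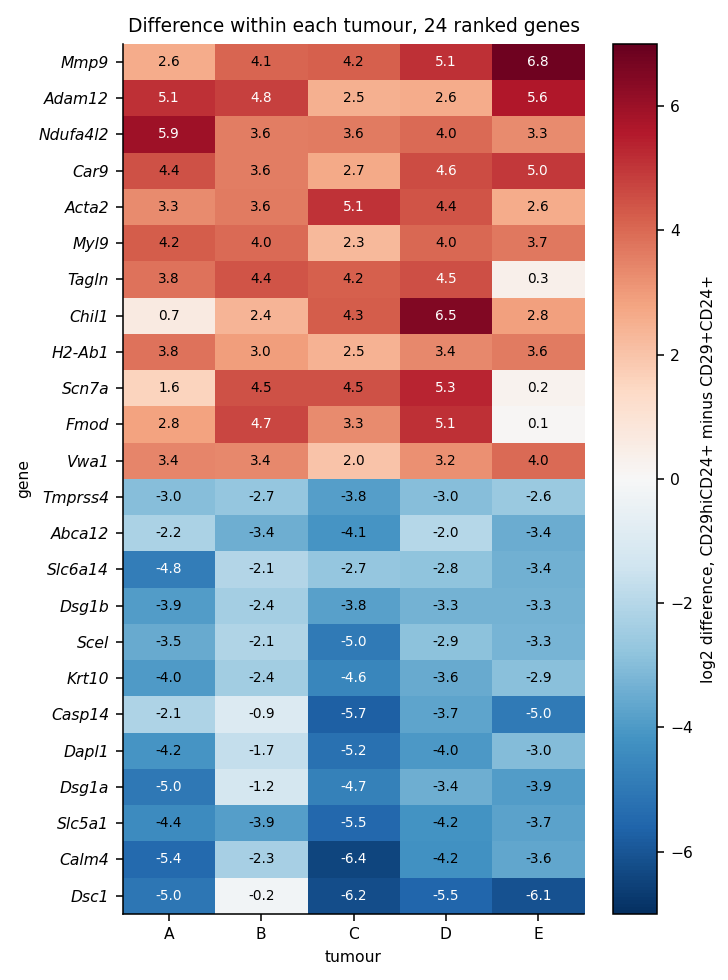
Log2 difference between the CD29hiCD24+ and the CD29+CD24+ array of each tumour (columns, x axis) for the 12 highest and 12 lowest called genes (rows, y axis), with colour and printed value giving the difference. Tumour E is near 0 for Tagln, Scn7a and Fmod, and tumour B has the smallest fall in Dsc1, Dsg1a, Casp14 and Dapl1.

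Wnt feedback genes were not called higher in the CD29hiCD24+ gate. Of 16 feedback and target genes 3 were called lower and 0 higher, against 4.32% and 5.35% of all genes. The lower count was 1, 1, 2, 1 and 1 without tumour A, B, C, D or E. Notum, a secreted enzyme that inactivates Wnt proteins and is itself a Wnt target, read 7.49, 6.86, 5.92, 7.26 and 6.62 in CD29hiCD24+ and 9.1, 9.01, 7.5, 9.79 and 9.24 in CD29+CD24+ arrays. The gates did not overlap, and the difference was -2.1 ± 0.21 (adjusted p = 0.00935). Axin2, a general feedback target of the pathway, read 8.65, 8.11, 6.96, 7.99 and 8.08 against 8.24, 7.79, 6.84, 7.81 and 7.75, a difference of 0.27 ± 0.12 (95% interval -0.02 to 0.57) that was positive in all 5 tumours and was not called. The R-spondin receptor Lgr5 differed by -0.59 ± 0.21 (95% interval -1.09 to -0.1), Tnfrsf19 by -1.55 ± 0.35 and Nkd2 by -0.8 ± 0.18, the last 2 being called. Among 18 ligands and antagonists, 2 (11.1%) were called higher and 1 (5.56%) lower, against 5.35% and 4.32% of all genes. The 2 were the Dickkopf family member Dkk3 and the ligand Wnt10a (1.14 ± 0.2), and Notum was the 1 called lower. Wnt10a lost its call whichever tumour was left out. Dkk3 read 8.47, 7.77, 7.96, 7.98 and 9.3 against 5.82, 5.46, 6.11, 5.64 and 7.16 and differed by 2.26 ± 0.17 (adjusted p = 0.00642), without overlap.

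Of 17 genes tied to mammary stem cells 1 was called higher (5.88%), close to the 5.35% of all genes, and 0 lower. It was Lgr6 (0.42 ± 0.09), which lost its call whichever tumour was left out, and the list median was -0.128. Procr (0.57 ± 0.16), Sox9 (-0.35 ± 0.35), Bmi1 (-0.52 ± 0.18) and Id4 (-0.29 ± 0.29) were not called. In the EGF family (12 tested) the receptor Erbb3 was called lower, at -1.13 ± 0.12, and the ligand Hbegf higher, by 0.83 ± 0.1. Each call is 8.33% of the family, against 4.32% lower and 5.35% higher among all genes. Erbb2 (-0.78 ± 0.23) and Egfr (-0.34 ± 0.18) were not called. Of 13 IGF axis genes 3 were called higher (23.1%, against 5.35% of all genes), with the binding protein Igfbp7 at 1.37 ± 0.14. Without A, B, C or D 1 was called. Of 14 Notch pathway genes 1 was called higher (7.14%, close to the 5.35% of all genes). It was the ligand Jag2, which lost its call whichever tumour was left out. Of 15 BMP and Id genes limma called 0, with 3 at an unadjusted p under 0.05 and 2 called higher without tumour E. Of 22 immediate early genes, which respond to tissue dissociation, 1 was called higher (4.55%, close to the 5.35% of all genes). It was the chaperone Dnajb1 (0.34 ± 0.08), which lost its call whichever tumour was left out. Of 15 cholesterol synthesis genes limma called 0, with 6 at an unadjusted p under 0.05.

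Some antigen presentation genes were called higher in CD29hiCD24+ cells. Of 13 tested 4 were called higher and 0 lower, against 5.35% and 4.32% of all genes. The median was 1.324, and all 13 differences were positive. H2-Ab1, the MHC class II beta chain, read 7.75, 7.13, 7.13, 8.08 and 7.55 in CD29hiCD24+ and 3.98, 4.18, 4.68, 4.69 and 3.93 in CD29+CD24+ arrays. The gates were far apart, and the difference was 3.24 ± 0.23 (adjusted p = 0.00631), a call kept whichever tumour was left out. H2-Aa (2.74 ± 0.56), H2-Eb1 (1.37 ± 0.24) and the peptide transporter Tap1 (1.03 ± 0.2) were called, and the class II invariant chain Cd74 was not (1.48 ± 0.37, adjusted p = 0.054). MHC genes are close relatives, and probes may not separate them. Counts were 1, 1, 5, 3 and 1 without tumour A, B, C, D or E. Interferon response genes had 3 of 17 called higher, against 5.35% of all genes. The 3 were Ifit1 (1.41 ± 0.31), Oasl2 (1.1 ± 0.22) and Gbp2 (0.74 ± 0.16). The count was 0, 0, 1, 2 and 0 without tumour A, B, C, D or E.

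Leukocyte markers were looked at beside these genes. Of 13 leukocyte markers tested 2 were called higher, against 5.35% of all genes, and all 13 differences were positive. The 2 were Csf1r (2.15 ± 0.49), the receptor for macrophage colony-stimulating factor, and Adgre1 (0.74 ± 0.13), a macrophage surface receptor. The mean level of the list was 4.04 to 4.93 in CD29hiCD24+, 3.42 to 4.52 in CD29+CD24+ and 3.46 to 5.99 in Lin- arrays, and it was higher in all 5 tumours, by 0.621, 0.602, 0.431, 0.408 and 1.181 in A to E. The mean of the antigen presentation list was higher by 1.276, 1.259, 0.384, 1.835 and 1.562 in the same order. Csf1r read 4.42, 5.3, 7.36, 7.78 and 6.91 against 3.46, 3.64, 6.44, 4.13 and 3.36, and the lysozyme Lyz2, not called, 5.37, 5.98, 7.18, 7.48 and 7.67 against 2.84, 2.87, 5.84, 7.51 and 2.92. The pan-leukocyte gene Ptprc, which encodes CD45, differed by 0.27 ± 0.23 and had means of 3.77 and 3.50, and Cd52, Cd53, Cd4, Cd8a and Ms4a1 had means from 3.15 to 3.64, above the low band. The count of called markers was 1, 0, 0, 1 and 0 without tumour A, B, C, D or E. The part of such cells in the MHC result was not tested.

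The parent Lin- fraction places the called genes relative to both gates. Of the 551 genes called lower, 284 had a Lin- mean above that of CD29+CD24+ cells, 266 between the gates and 1 below CD29hiCD24+. For Krt10 the Lin- level was 13.48 ± 1.31, for Dsc1 10.46 ± 1.85, for Calm4 12.44 ± 0.98 and for Sprr1a 14.46 ± 0.28 (SD, n = 5 each), in each case above the mean of both gates. Of the 683 genes called higher, 304 had a Lin- mean below CD29+CD24+, 354 between and 25 above CD29hiCD24+. Acta2 was at 10.45 ± 1.99 in Lin- cells and Fmod at 6.46 ± 2.41 (SD, n = 5 each). Lin- cells hold both gates and others, so these levels are not independent of them.

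The tumour difference was unlike the normal one for many genes. The gate difference in tumours minus that in normal glands (5 tumours and 3 normal arrays per gate) was called for 6093 of 12767 genes (47.7%), 3206 higher and 2887 lower. Of the 1234 genes called in tumours, 433 were called with the same sign in normal glands and 310 with the opposite sign. Over all 12767 genes tested, 6434 were called in normal glands in either direction. Of the 1234, 821 had a tumour difference that was called as different from the normal one, against 47.7% of all genes. The 1234 were picked for their difference on the same tumour arrays, so an excess over all genes follows in part from that choice. Basal keratins and p63 differed widely between the gates of normal glands. The normal difference of Krt14 was 10.38 ± 0.13, of Krt17 10.73 ± 0.33 and of Trp63 9.32 ± 0.26, where tumours showed none that passed the test, and the tumour minus normal values were -10.35, -10.69 and -9.14. Contractile genes were higher in the CD29hiCD24+ gate of normal glands as well, with Acta2 at 7.8 ± 0.4, Myl9 at 11.11 ± 0.33 and Tagln at 10.15 ± 0.64; of the 14 members tested 12 were called lower in tumour minus normal and 0 higher.

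Among genes called in both fits, the lowest tumour minus normal values were those of the matrix protein Sparc (-9.73), Col17a1 (-9.72), the teneurin Tenm2 (-9.21), Nrep (-9.18), Antxr1 (-9.07) and C130075A20Rik (-8.38). Sparc, Col17a1, Tenm2 and Antxr1 were higher in the CD29hiCD24+ gate of both tissues, while Nrep was lower in tumours (-1.61 ± 0.19) and higher in normal glands (7.57 ± 0.33), as was C130075A20Rik. The tumour calls of Nrep and C130075A20Rik were kept whichever tumour was left out, whereas that of Col17a1 was lost in each case, that of Sparc without A, B, C or D, that of Tenm2 without A, B, D or E and that of Antxr1 without A, B, C or E. The highest values were those of the reductase Akr1c13 (6.16), the mitotic kinesin Kif2c (5.76), Lgals3bp (5.59), Anln (5.29), Tmem140 (5.27) and Entpd3 (5.16). All 6 were called higher in tumour and lower in normal CD29hiCD24+ cells. Akr1c13, Anln and Tmem140 kept their tumour calls whichever tumour was left out, while Lgals3bp lost its call in each case, Kif2c without A, B, C or E and Entpd3 without A, B, D or E.

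The hypoxia genes Car9, Ndufa4l2 and Bnip3 and the skin genes Krt10, Scel and Abca12 were not called the same way in normal glands. Car9 differed there by 0.55 ± 0.37, Ndufa4l2 by -0.01 ± 0.38 and Bnip3 by -1.43 ± 0.27, the last being called lower, and the tumour minus normal values of 3.49, 4.11 and 3.88 were called (limma adjusted p = 0.00016, 6.35e-05 and 9.64e-06). These hypoxia genes were picked for their difference on the same tumour arrays, so the p-values are not independent of that choice. Other members were called higher in normal glands too, Egln3 by 2.59 ± 0.37 and P4ha1 by 2.41 ± 0.26, and the median of the list was 0.605 there against 0.65 in tumours. Krt10 differed by 0.21 ± 0.38 in normal glands, Scel by -0.4 ± 0.46 and Abca12 by 0.2 ± 0.36, none of them called, and the median of the suprabasal list was -0.173 against -1.505. Medians of the desmosomal and barrier lipid lists were 0.068 and -0.358 in normal glands, against -0.418 and -0.922 in tumours. The skin protease list was further below 0 in normal glands, with a median of -1.332 against -0.719. Junction genes were lower in the CD29hiCD24+ gate of both tissues, with a median of -3.21 in normal glands and -1.116 in tumours. Mmp9 (0.74 ± 0.83) was not called in normal glands, whereas Adam12 (2.59 ± 0.7) was.

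**Figure D5:**
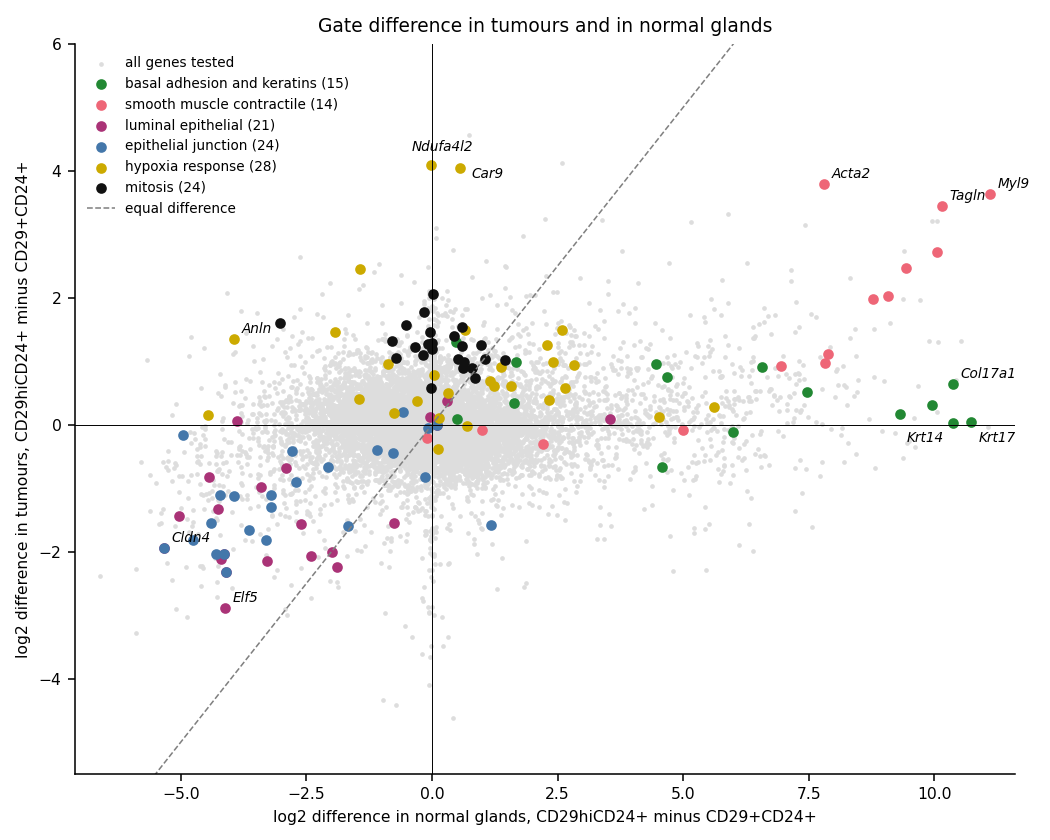
Log2 difference between CD29hiCD24+ and CD29+CD24+ cells in tumours (y axis, 5 tumours) against the same in normal glands (x axis, 3 arrays per gate), 1 point per gene, with 6 gene lists coloured and the line of equal difference dashed. Basal keratins lie far to the right at a tumour difference near 0, 10 of the 14 contractile genes lie above 0, and Ndufa4l2 and Car9 lie at the top near a normal difference of 0.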

How the data were processed

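RNA of 24 sorted populations was hybridised to Affymetrix mouse genome arrays. The deposited values are log2 signals per probe set on a scale set by the authors before deposit; the submitters' processing notes name RMA, GCRMA and Partek, which include background correction and normalisation, with no version or order, and which of them made the values is not stated. They ran from 0.489 to 16.055, and no further normalisation was applied. Of 45101 probe sets, 34945 were annotated to 1 gene, 932 to several and 9160 to none. Genes were kept if at least 3 of the 10 tumour arrays read above 2.829, under which 40% of the values lay, which left 12767 of 18193, and the probe set with the highest mean stood for a gene, so that transcripts ending elsewhere are not seen.

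The fit was limma 3.58.1 in R 4.3.3 on the 10 arrays with tumour and gate as terms and a variance trend, with Benjamini-Hochberg adjustment over all genes. The difference from normal used 16 arrays. The tumour letter pairs arrays of 1 tumour: deviations from the gate means correlated at 0.400 to 0.652 within tumours (5 pairs) and at -0.408 to 0.176 between different tumours (20 pairs). Of the normal arrays, 1 in each sorted gate has no letter, so normal arrays were not paired. Intervals and p-values of the tumour comparison measure how much the gate difference varied between these tumours, with variances moderated over all genes. The 5 tumours limit the precision. Errors of the normal difference and of tumour minus normal rest on 1 variance per gene, pooled over tumour pairs and unpaired normal arrays. The scripts were tested on simulated data.

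Genes named are the 12 highest and 12 lowest called with the same sign in all 5 tumours, members of gene lists, the gate markers, and the 6 highest and 6 lowest against normal. Comparison, members and lists were chosen with earlier results of these data known. Promoter windows and symbols came from RefSeq (GRCm38.p6). List members that did not pass the filter or are not annotated on the array were not analysed here. Alternatives were pairing, arrays in the fit, normalisation, filter, probe set, variance model, an actin covariate, a minimum difference and each replicate left out.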

Additional observations from a re-analysis of the deposited data

Results flagged for a closer look

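Among 118 sets of 5 arrays looked at (levels of the genes at the ends of the ranking and list means, by gate), 5 had 1 array far from the other 4, and chance gives this in about 1 of 20 sets. Dsc1 in CD29+CD24+ cells of tumour B was at 3.27, against 7.80 to 9.03 in the others. Tagln in CD29hiCD24+ cells of tumour E was at 3.78, against 8.39 to 9.11. Vwa1 in CD29+CD24+ cells of tumour A was at 6.82, against 4.82 to 5.39. The mean of the gate markers in CD29hiCD24+ cells of tumour E was 10.1, against 10.76 to 10.92. The mean of the cholesterol synthesis genes in CD29hiCD24+ cells of tumour A was 7.96, against 8.85 to 9.01.

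The gate difference in tumours departed from that in normal glands, by a test of the difference itself in limma, for 6093 genes. The lowest tumour minus normal log2 values among the genes called in both fits were -9.73 for Sparc, -9.72 for Col17a1, -9.21 for Tenm2, -9.18 for Nrep, -9.07 for Antxr1 and -8.38 for C130075A20Rik. The highest were 6.16 for Akr1c13, 5.76 for Kif2c, 5.59 for Lgals3bp, 5.29 for Anln, 5.27 for Tmem140 and 5.16 for Entpd3. Nrep and C130075A20Rik in one direction, and the 6 highest in the other, had opposite signs in tumour and normal cells.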

How the results depend on the processing

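The count of 1234 genes called (683 higher, 551 lower) became 169 (90 and 79) with no replicate block, although pairing by tumour held in the data. With a random replicate block it became 1742 (894 and 848). It became 2189 (1094 and 1095) in 15 tumour arrays with the Lin- group, and 598 (320 and 278) in 24 arrays without the block. Quantile normalisation gave 1050 higher and moved the median of all genes from 0.006 to 0.062, no filter on low values gave 660 (375 and 285), and the actin covariate gave 1908, with 1024 lower. A minimum difference of 0.5 gave 64 (34 and 30), and 3904 genes in place of 6093 for the difference from normal. Leaving out 1 tumour gave 218 to 560 genes in all, 114 to 361 higher and 104 to 235 lower. The other counts stayed within 1.5 times the main one. Changing the block, the arrays in the fit, the variance trend or the minimum difference leaves each log2 difference as it was. A sign could therefore not change in those alternatives. In the others that tested them the 1234 genes kept their sign, except that 1232 did with the mean of all kept probe sets. These genes were called on the same tumours, so a kept sign is not an independent check. The cause of the shifts in the counts was not tested. Without the block, no member of the mitosis or DNA replication lists and 4 of the 12 hypoxia, 4 of the 15 junction and 5 of the 10 suprabasal members stayed called. Signals in the low band have no firm order.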
